A study of Homo sapiens with 8 samples.

Results

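The 10 genes described here encode subunits of the Polycomb complexes, and they were taken by symbol from the table of non-normalized intensities: EZH2, EZH1, SUZ12, EED, RBBP4, RBBP7, JARID2, CBX7, CBX2 and BMI1. Each has 1 row among the 31412 named rows of that table. The cells were MDA-MB-231, a triple-negative breast cancer line, in which doxycycline switches on oestrogen receptor beta (ERβ, encoded by ESR2). All cultures, controls included, grew in charcoal-stripped serum with doxycycline at 100 ng/ml and were then kept for 5 days with either ethanol, the vehicle, or estradiol at 1 nM, with fresh medium on day 3. No culture without doxycycline was analysed here, so an effect that needs ERβ cannot be told apart from any other effect of estradiol. There were 3 vehicle and 3 estradiol cultures. A second RNA sample was hybridised for vehicle culture 3 and, by its title, for estradiol culture 1, which made 8 arrays.

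Polycomb complexes keep genes silent through histone marks. Polycomb repressive complex 2 (PRC2) methylates lysine 27 of histone H3 through its catalytic subunit EZH2 or EZH1, which works only together with SUZ12 and EED. The histone chaperones RBBP4 and RBBP7 belong to the same core, and JARID2 is an accessory subunit that helps bring PRC2 to its sites. Polycomb repressive complex 1 (PRC1) marks histone H2A with ubiquitin. CBX7 and CBX2 are alternative chromodomain subunits through which PRC1 reads the mark made by PRC2, and BMI1 (PCGF4) is a RING-finger partner of its ubiquitin ligase. In dividing cells EZH2 is the usual PRC2 enzyme, its transcription is tied to the cell cycle through E2F factors, and high EZH2 is a known feature of aggressive breast cancers.

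The arrays gave 10172 to 11123 detected rows each (detection p under 0.01), with a median raw intensity of 66.3 to 75.4. Of 7 marker genes of MDA-MB-231, 6 were detected on all arrays and EGFR on 3 vehicle arrays and no estradiol array. Of 3 genes low or absent in triple-negative cells, ESR1 and PGR were detected on no array and ERBB2 on 1 vehicle array. The ERBB2 row combines probes and averaged 7.82 in vehicle and 7.85 in estradiol on the log2 scale. The EGFR row combines probes and averaged 7.77 in vehicle and 7.36 in estradiol on the log2 scale, so its missing detection does not show absence. All 8 arrays detected ESR2, which averaged 11.35 in vehicle and 10.18 in estradiol on the log2 scale (log2 change -1.17, limma adjusted p = 6.04e-05). Of 8 markers of leukocytes, endothelium and fibroblasts, 6 were detected on no array, and CD14 and PDGFRB were detected on 4 and 8. The second array of vehicle culture 3 correlated with the first array of that culture at r = 0.979 across genes, the lowest value of any pair of vehicle arrays. The arrays lay on 2 chips. Chip A held vehicle 1, the repeat of vehicle 3 and estradiol 1, and chip B held the other 5. In bulk RNA, fewer cells of a type and less RNA per cell cannot be told apart. Precision is limited by how few arrays there were.

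For the 3 members that passed the test 1 annotated promoter each is shown, because E2F and oestrogen receptor binding words are the ones a reader would look for in them. Each window runs from 250 bases before the RefSeq transcription start to 50 bases from it on, in GRCh38.p14, and is printed 5′ to 3′ on the strand of the gene. Capitals mark CCAAT in either orientation and, in EZH2, an E2F word. EZH2 lies on the minus strand (chr7:148884242-148884541), RBBP4 on the plus strand (chr1:32650958-32651257) and CBX7 on the minus strand (chr22:39152631-39152930).
EZH2: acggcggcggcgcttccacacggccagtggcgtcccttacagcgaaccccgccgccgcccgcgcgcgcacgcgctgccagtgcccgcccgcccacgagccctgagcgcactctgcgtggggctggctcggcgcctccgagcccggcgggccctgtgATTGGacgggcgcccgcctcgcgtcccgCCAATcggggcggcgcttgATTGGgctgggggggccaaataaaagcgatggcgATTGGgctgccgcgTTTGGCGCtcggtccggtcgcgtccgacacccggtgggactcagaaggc
RBBP4: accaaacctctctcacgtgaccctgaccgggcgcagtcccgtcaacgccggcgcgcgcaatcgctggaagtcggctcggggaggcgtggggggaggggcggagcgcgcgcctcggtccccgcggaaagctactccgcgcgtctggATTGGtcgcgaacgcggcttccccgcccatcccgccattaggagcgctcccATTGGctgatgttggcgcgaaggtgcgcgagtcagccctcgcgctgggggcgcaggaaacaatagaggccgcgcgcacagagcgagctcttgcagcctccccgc
CBX7: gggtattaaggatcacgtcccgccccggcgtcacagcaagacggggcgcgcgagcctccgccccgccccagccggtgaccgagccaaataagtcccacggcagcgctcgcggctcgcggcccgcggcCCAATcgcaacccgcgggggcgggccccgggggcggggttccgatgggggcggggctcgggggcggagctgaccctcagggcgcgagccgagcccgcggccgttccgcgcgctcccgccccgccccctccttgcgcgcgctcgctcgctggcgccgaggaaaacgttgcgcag

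RefSeq promoters matched 9 of the 10 members, in 14 windows of 300 bases. An E2F word, taken as TTTCCCGC, TTTCGCGC, TTTGCCGC or TTTGGCGC on either strand, stood in a window of EZH2, EZH1 and SUZ12. All promoter windows of the RefSeq table numbered 35116, and 3.31% of them held such a word. In EZH2 it was TTTGGCGC, 2 to 9 bases past the start. The oestrogen response element GGTCANNNTGACC occurred in no member and in 0.057% of all windows. Its half-site GGTCA, in either orientation, occurred in RBBP4, CBX7 and BMI1, and in 37.4% of all windows. CCAAT, in either orientation and not overlapping the E2F words, stood in windows of 7 members and in 34.6% of all windows. The printed window of EZH2 held 4 copies, that of RBBP4 held 2 and that of CBX7 held 1. RefSeq gives EZH2 and RBBP4 a second start. The other EZH2 window (chr7:148883436-148883735) held no E2F word and no CCAAT, and the other RBBP4 window (chr1:32651106-32651405) held 1 CCAAT and no half-site. A member counted where any of its windows matched, and several have more than 1 window, so member counts and shares of windows are not like measures. These are matches of letters, and binding was not measured.

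Estradiol and vehicle cultures were compared to ask which Polycomb transcripts differ once the ligand is added to cells that make ERβ. EZH2 and RBBP4 fell with estradiol and CBX7 rose, each by less than 1.5 times. SUZ12, BMI1, EED, RBBP7 and JARID2 did not pass the test, and EZH1 and CBX2 were too rarely detected to be tested. Rows detected (p under 0.01) on 3 or more of the 8 arrays entered the test, and a row was called where its p from limma, adjusted over all 11191 tested rows, was under 0.05. Of the 8 members tested, 2 were lower, against 14.0% of all tested rows, and 1 was higher, against 13.5%. In either direction that was 37.5% of the members and 27.5% of all tested rows. The 3 culture values of each treatment did not overlap in 3 of the 8 tested members, and in 42.8% of all tested rows. The median log2 change was -0.17 over the 8 members and -0.02 over all tested rows. The labels do not say whether replicates were grown on separate days or passages, and the p-values cover only the spread among these 6 samples.

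**Figure D1:**
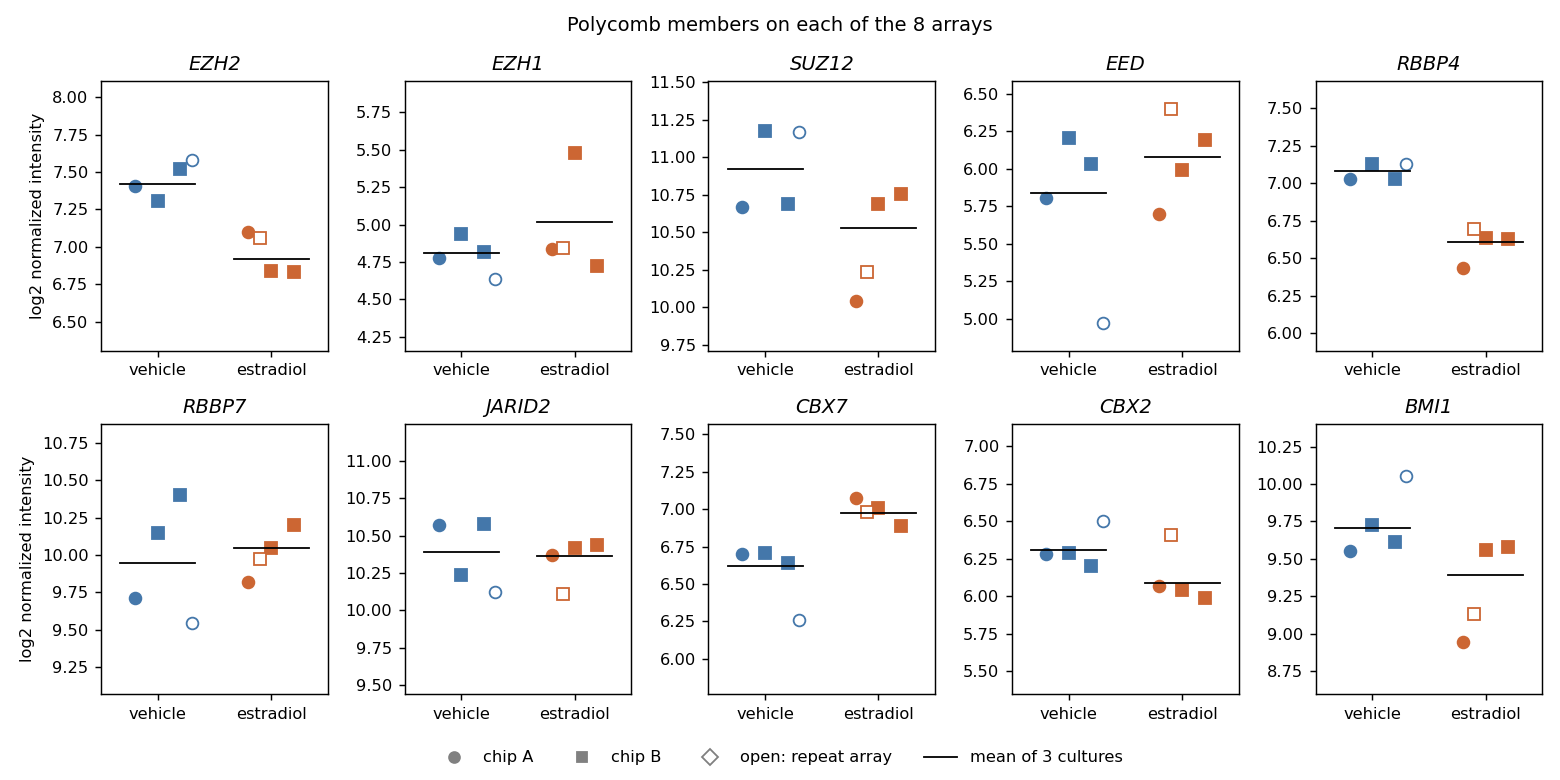
Log2 normalized intensity of the 10 members on each array, vehicle in blue and estradiol in orange, circles for chip A, squares for chip B, open symbols for the repeat arrays and a line at the mean of the 3 cultures (culture 1 to 3 from left to right). All panels span the same range of log2 units. EZH2 and RBBP4 lie lower and CBX7 higher on all 4 estradiol arrays, and the repeat of vehicle 3 stands apart in EED.

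EZH2, the main histone H3 lysine 27 methyltransferase, had log2 normalized intensities of 7.40 (vehicle 1), 7.31 (vehicle 2), 7.52 (vehicle 3) and 7.58 (vehicle 3 repeat). With estradiol they were 7.10 (estradiol 1), 7.06 (estradiol 1 repeat), 6.84 (estradiol 2) and 6.83 (estradiol 3). All 4 estradiol arrays were below all 4 vehicle arrays, and estradiol culture 1 was the highest of the 3 on both of its arrays. Over cultures EZH2 fell from 7.42 ± 0.12 to 6.92 ± 0.14 (SD, n = 3 each), a log2 change of -0.50 (SE 0.119, 95% confidence interval -0.77 to -0.24, limma adjusted p = 0.0107). The estradiol mean was 70.5% of the vehicle mean. A change of this size or larger, in either direction, was seen in 17.9% of all tested rows. The raw intensities, before background correction and normalization, overlapped: 184 to 232 on the vehicle arrays and 170 to 190 on the estradiol arrays.

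Within chip A the log2 change of EZH2 was -0.39, with a single estradiol array and so no test given here or for the other members, and within chip B it was -0.51 (limma adjusted p = 0.0293). The call was lost when vehicle culture 3 was left out (log2 change -0.44, limma adjusted p = 0.0585) and when estradiol culture 3 was left out (-0.46, limma adjusted p = 0.0545). It was also lost when arrays were centred on the median of all rows instead of quantile normalized (log2 change -0.29, limma adjusted p = 0.109). That scaling put the median of all tested rows at 0.15, and relative to it EZH2 changed by -0.43. Under all 23 alternative settings EZH2 was lower with estradiol. The row combines 3 probes, as read from its detection p-values, and whether all of them fell was not tested.

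EZH1, the second PRC2 enzyme, more used in resting and differentiated cells, was close to background. It passed the detection limit on 1 of 8 arrays, estradiol 2, where its log2 normalized intensity was 5.48. The other 3 estradiol arrays gave 4.72 to 4.85 and the 4 vehicle arrays gave 4.64 to 4.94, so the treatments overlapped. EZH1 was therefore not tested, and its mean difference of 0.20 rests on 1 culture.

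SUZ12, the zinc-finger subunit on which PRC2 is assembled, had log2 normalized intensities of 10.67 (vehicle 1), 11.18 (vehicle 2), 10.69 (vehicle 3) and 11.17 (vehicle 3 repeat). The estradiol arrays gave 10.04 (estradiol 1), 10.24 (estradiol 1 repeat), 10.69 (estradiol 2) and 10.76 (estradiol 3). Only the arrays of estradiol culture 1 lay under all vehicle arrays, and estradiol cultures 2 and 3 lay within the vehicle range. The log2 change of -0.40 (SE 0.181, 95% confidence interval -0.80 to 0.01) did not pass the test (limma adjusted p = 0.132). Without estradiol culture 1 it was -0.20. It was -0.88 within chip A and -0.37 within chip B. When all 8 arrays entered with the culture as a random block, SUZ12 was called lower (-0.59, limma adjusted p = 0.00926), and in that fit the repeated culture 1 has more weight.

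BMI1, which joins RING1 or RNF2 in the PRC1 ubiquitin ligase, was low on the same arrays. The vehicle arrays gave log2 normalized intensities of 9.55 (vehicle 1), 9.72 (vehicle 2), 9.61 (vehicle 3) and 10.05 (vehicle 3 repeat). Estradiol culture 1 gave 8.95 and, on its repeat, 9.13, whereas estradiol 2 and 3 gave 9.56 and 9.58 and lay at the lower edge of the vehicle arrays. The log2 change was -0.31 (SE 0.157, 95% confidence interval -0.66 to 0.04, limma adjusted p = 0.171), and without estradiol culture 1 it was -0.13. It was -0.86 within chip A and -0.24 within chip B. With all 8 arrays and a random block BMI1 was called lower (-0.55, limma adjusted p = 0.00798). The arrays low in SUZ12 and BMI1 lay on different chips and are titled as culture 1, whereas the series text names replicate 3 as the repeated one. With the repeat averaged into culture 3 instead, the log2 changes were -0.52 for SUZ12 (limma adjusted p = 0.0704) and -0.41 for BMI1 (limma adjusted p = 0.0915).

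**Figure D2:**
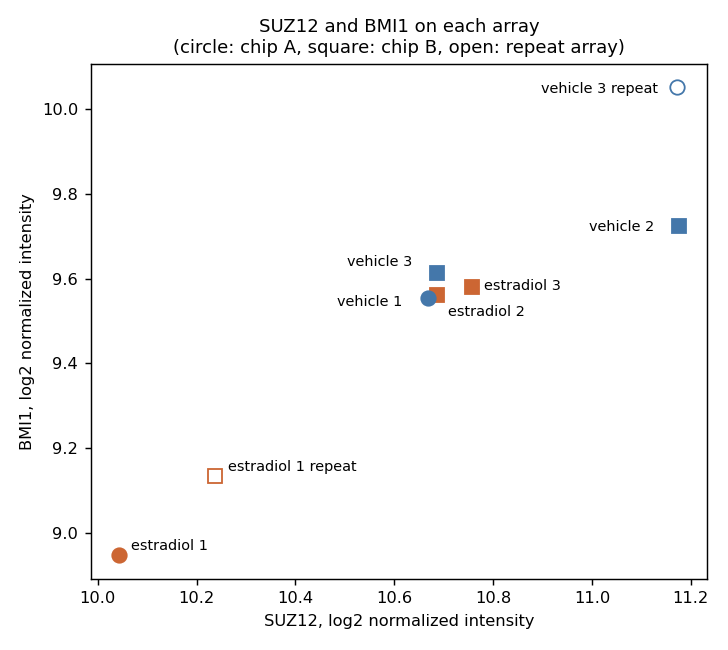
SUZ12 against BMI1 on each of the 8 arrays, both as log2 normalized intensity, vehicle in blue and estradiol in orange. Both arrays of estradiol culture 1 sit at the lower left, 10.04 and 10.24 for SUZ12 and 8.95 and 9.13 for BMI1. Estradiol 2 and 3 sit among the vehicle arrays.

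RBBP4, a WD40-repeat histone chaperone that PRC2 shares with the NuRD and CAF-1 complexes, varied little between cultures of a treatment. Its log2 normalized intensities were 7.03 (vehicle 1), 7.13 (vehicle 2), 7.03 (vehicle 3) and 7.13 (vehicle 3 repeat). They were 6.44 (estradiol 1), 6.69 (estradiol 1 repeat), 6.64 (estradiol 2) and 6.62 (estradiol 3), so that no estradiol array reached any vehicle array. RBBP4 fell from 7.08 ± 0.05 to 6.61 ± 0.04 (SD, n = 3 each), a log2 change of -0.47 (SE 0.101, 95% confidence interval -0.70 to -0.25, limma adjusted p = 0.00651). The raw intensities did not overlap either, with 163 to 189 in vehicle and 137 to 159 in estradiol.

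The call of RBBP4 held when any 1 culture was left out, with limma adjusted p-values of 0.00801 to 0.0317. Its log2 change was -0.43 within chip B (limma adjusted p = 0.0366) and -0.64 within chip A. Centring on the median of all rows ended the call (-0.25, limma adjusted p = 0.174). Relative to the median of all tested rows under that scaling RBBP4 changed by -0.39. The row combines 3 probes, and whether all of them fell was not tested. On vehicle array 1 its detection p was 0.0101, just over the limit, although its intensity was no lower there. The detection p ran from 1.5e-06 to 0.0101 on the vehicle arrays and from 1.25e-07 to 0.000859 on the estradiol arrays. Detection was thus no weaker on the estradiol arrays, where the intensity was lower.

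RBBP7, the close relative of RBBP4 in the same position of PRC2, gave log2 normalized intensities of 9.55 to 10.40 on the vehicle arrays and 9.82 to 10.20 on the estradiol arrays. The estradiol values lay inside the vehicle range. The log2 change of 0.10 did not pass the test (SE 0.138, 95% confidence interval -0.20 to 0.41, limma adjusted p = 0.617). Without the vehicle 3 repeat, the lowest array, it was -0.04, and it was 0.19 on chip A and -0.20 on chip B. Of 23 alternative settings, 18 gave the same sign.

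EED, the subunit that binds trimethylated lysine 27 and stimulates the enzyme, had log2 normalized intensities of 5.81 (vehicle 1), 6.20 (vehicle 2), 6.03 (vehicle 3) and 4.97 (vehicle 3 repeat). The estradiol arrays gave 5.70 (estradiol 1), 6.40 (estradiol 1 repeat), 5.99 (estradiol 2) and 6.19 (estradiol 3). The repeat of vehicle 3 was the lowest array, 1.06 under the first array of its own culture, and the only one on which EED was not detected. The log2 change of 0.24 (SE 0.165, limma adjusted p = 0.310) became 0.06 without that array and -0.05 with first arrays only. EED was called higher when vehicle culture 2 was left out (0.42, limma adjusted p = 0.0451). It was also called higher with array weights, where the 6 culture averages were weighted by their quality (0.55, limma adjusted p = 0.00214). Array weights called 58.0% of all tested rows, and the vehicle 3 repeat was not weighted by itself.

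JARID2, a catalytically inactive Jumonji protein, gave 10.12 to 10.58 on the vehicle arrays and 10.11 to 10.43 on the estradiol arrays, on the log2 scale. Both repeat arrays were the lowest of their treatment. The log2 change was -0.02 (SE 0.122, 95% confidence interval -0.29 to 0.25, limma adjusted p = 0.910). Of 23 alternative settings, 18 gave the same sign.

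CBX7 was the member that rose. The vehicle arrays gave log2 normalized intensities of 6.70 (vehicle 1), 6.71 (vehicle 2), 6.64 (vehicle 3) and 6.26 (vehicle 3 repeat). The estradiol arrays gave 7.08 (estradiol 1), 6.98 (estradiol 1 repeat), 7.01 (estradiol 2) and 6.89 (estradiol 3), all above the vehicle arrays. The raw intensities did not overlap, with 110 to 161 in vehicle and 165 to 193 in estradiol. Over cultures CBX7 rose from 6.62 ± 0.15 to 6.98 ± 0.08 (SD, n = 3 each), a log2 change of 0.36 (SE 0.115, 95% confidence interval 0.10 to 0.61, limma adjusted p = 0.0432), or 1.28-fold.

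The repeat of vehicle 3 widened this difference, being 0.38 under the first array of its culture. Without it the log2 change of CBX7 was 0.29 and the call was lost (limma adjusted p = 0.0891). The change was 0.60 within chip A and 0.29 within chip B (limma adjusted p = 0.138). Leaving out vehicle culture 3, or estradiol culture 1, 2 or 3, also ended the call (limma adjusted p-values of 0.0798 to 0.187), whereas leaving out vehicle culture 1 or 2 kept it (0.0383 and 0.0457). CBX7 was higher with estradiol under all 23 alternatives and called under 10 of them.

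CBX2, the chromodomain subunit of PRC1 that also compacts chromatin, passed the detection limit only on the repeat of estradiol 1 and was not tested. Its log2 normalized intensities were 6.28 (vehicle 1), 6.29 (vehicle 2), 6.20 (vehicle 3) and 6.51 (vehicle 3 repeat). The estradiol arrays gave 6.07 (estradiol 1), 6.41 (estradiol 1 repeat), 6.04 (estradiol 2) and 5.99 (estradiol 3), and the single array with a detection call lay inside the vehicle range. The culture means did not overlap, and their difference was -0.22. The row combines 3 probes, so its intensity and its detection p do not follow the relation seen in single-probe rows.

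**Figure D3:**
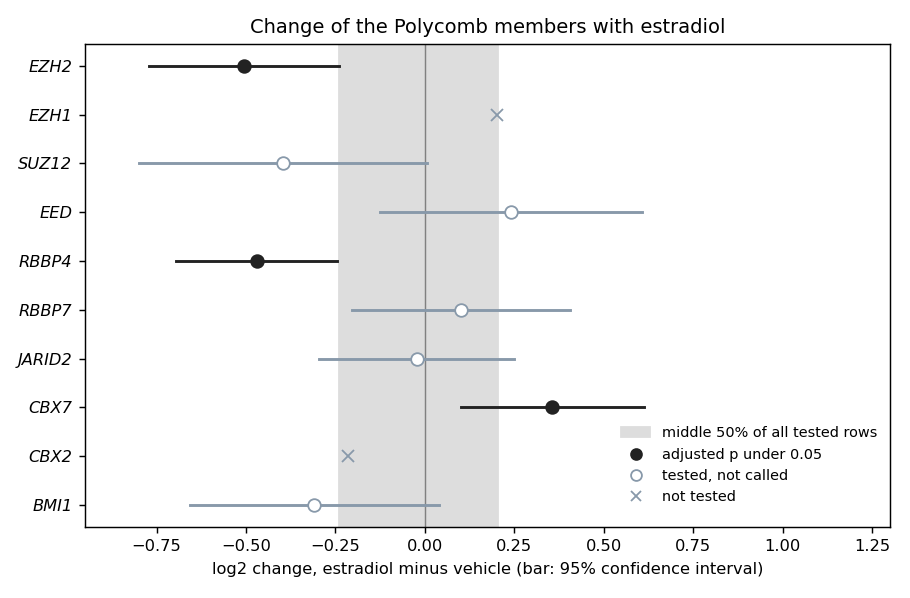
Log2 change of each member, estradiol minus vehicle, over 3 cultures per treatment, with 95% confidence intervals from limma for the 8 members tested and crosses for the 2 not tested. The grey band spans the middle 50% of all tested rows, -0.24 to 0.21. EZH2 at -0.50, RBBP4 at -0.47, SUZ12 at -0.40 and BMI1 at -0.31 lie left of the band, and CBX7 at 0.36 and EED at 0.24 lie right of it, with filled points for the 3 members called.

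Partners that can take the same place in a complex were also compared by the difference of their log2 values within each culture. RBBP4 minus RBBP7 shifted by -0.57 with estradiol, from -2.87 ± 0.17 to -3.44 ± 0.13 (SD, n = 3 each). Without the vehicle 3 repeat that shift was -0.41, on chip A it was -0.83 and on chip B -0.22. EZH2 minus EZH1 shifted by -0.71, from 2.61 ± 0.23 to 1.90 ± 0.47, and by -0.44 when estradiol culture 2, the only one with EZH1 detected, was left out. CBX2 minus CBX7 shifted by -0.57, from -0.31 ± 0.19 to -0.88 ± 0.09, with -0.92 on chip A and -0.38 on chip B. Each of the 3 had p = 0.1 in a two-sided exact permutation test, also 0.1 after Benjamini-Hochberg adjustment, which is the smallest that 3 against 3 cultures allow, so the test cannot pass 0.05 and unequal change was not shown. EZH1 and CBX2 were mostly below detection, and differences between rows say nothing about which protein is more abundant.

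Among all tested rows, those that followed EZH2 most closely over the 8 arrays were UQCR (r = 0.994), a subunit gene of mitochondrial complex III, TMEM11 (r = 0.986), CDC123 (r = 0.982), PSMB8 (r = 0.981), which encodes an immunoproteasome subunit, and MGC3731 (r = 0.981). All 5 were called lower with estradiol, as were 14.0% of all tested rows, with log2 changes of -0.37 to -0.69. They were picked for following EZH2 on these same arrays, so their calls follow from that choice and are given as a description. The 8 arrays fall into 2 treatments, so these correlations hold the treatment difference as well as the spread within treatments. The rows most like EZH1 reached no more than r = 0.845 (MARVELD1, followed by MON2, PDE4A, BSDC1 and LOC100132804), and none of these 5 was called.

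Beyond the 10 members, 52 further genes of PRC2, PRC1, PR-DUB and PhoRC were examined. PR-DUB removes the ubiquitin placed by PRC1, and PhoRC contains the DNA-binding protein YY1. Of the 34 of these genes that were tested 1 was higher and 4 were lower, 14.7% against 27.5% of all tested rows, and their median log2 change was -0.08. Among 6 tested accessory PRC2 genes PHF19, whose Tudor domain binds methylated histone H3, fell by 0.40 on the log2 scale (limma adjusted p = 0.0256). PHF1 (0.24), LCOR (0.30) and MTF2 (-0.16) did not pass. Among 21 tested PRC1 genes RING1, which encodes an E3 ligase of the complex, rose by 0.38 (limma adjusted p = 0.0341). PCGF5, which encodes a partner alternative to BMI1, fell by 0.82 (limma adjusted p = 0.0210). It was detected on 4 vehicle and 2 estradiol arrays, so it met the detection filter only with the vehicle arrays, where it is high. Its call is thus not independent of that filter and is given as a description. The sex-comb homologues SCML2 and SCMH1 fell by 0.65 (limma adjusted p = 0.00396) and 0.43 (limma adjusted p = 0.0143). None of the 7 tested PR-DUB and PhoRC genes passed, and their log2 changes were small (ASXL1 -0.12, ASXL2 -0.10, HCFC1 -0.20 and YY1 0.11).

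Genes that oppose Polycomb encode histone demethylases, trithorax-type methyltransferases, SWI/SNF subunits and acetyltransferases. None of the 6 tested was called, where 27.5% of all tested rows were, and their median log2 change was 0.14. A further 6 had a row but were too rarely detected to be tested. EP300, an acetyltransferase of lysine 27, had the largest log2 change of the 6, 0.32 (limma adjusted p = 0.126). UTX (KDM6A), a demethylase of the PRC2 mark, changed by 0.17 and MLL (KMT2A) by 0.18. SMARCB1, a SWI/SNF subunit, changed by 0.10.

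**Figure D4:**
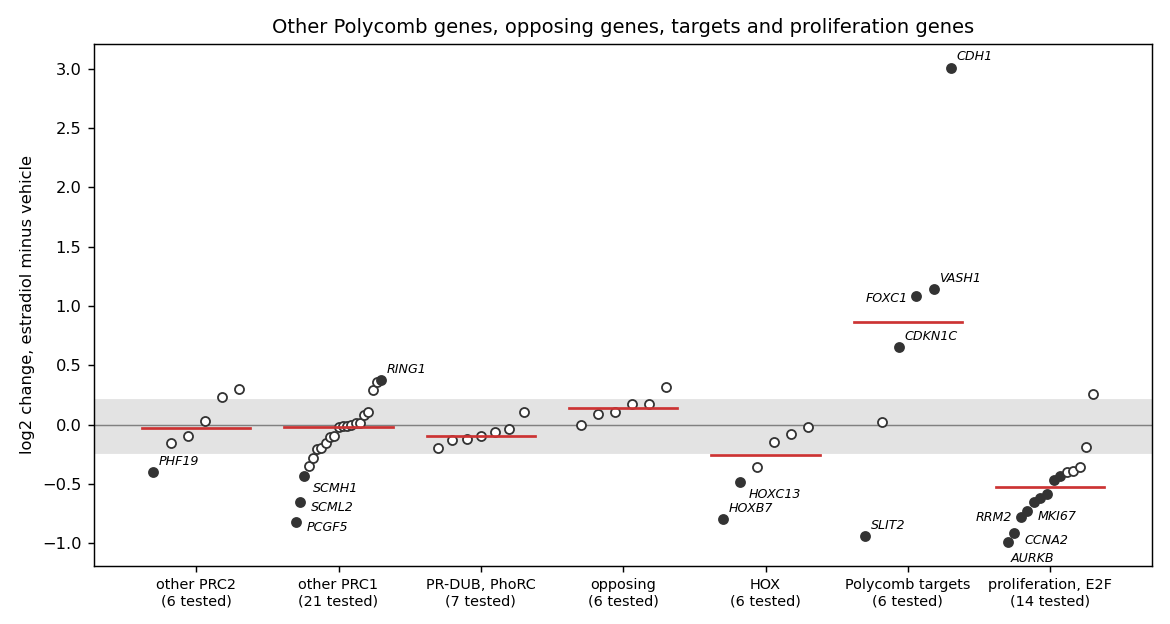
Log2 change, estradiol minus vehicle, of every tested gene in 7 lists, filled where the limma adjusted p was under 0.05, with a red line at the median of the list and a grey band over the middle 50% of all tested rows. The Polycomb and opposing lists lie around 0, known Polycomb targets spread from -0.94 (SLIT2) to 3.01 (CDH1), and proliferation genes lie mostly under 0.

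The HOX genes are the classical Polycomb targets. Of 39 HOX genes, 32 were detected on no array and 6 were tested. HOXB7 fell by 0.79 on the log2 scale (limma adjusted p = 0.00098) and HOXC13 fell by 0.48 (limma adjusted p = 0.0377), that is 2 of 6, where 14.0% of all tested rows were lower, and no HOX gene was called higher. HOXC13 was detected on 4 vehicle and 2 estradiol arrays, so it met the detection filter only with the vehicle arrays, where it is high. Its call is thus not independent of that filter and is given as a description. Without the vehicle 3 repeat 1 HOX gene was called, and leaving out a culture gave 1 or 2. HOXB5 (-0.36) and HOXD3 (-0.15) did not pass. The median log2 change of the 6 was -0.25.

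A list of 19 genes known from other cells as targets of EZH2 or of PRC2 held 6 tested genes and 12 genes detected on no array. Of the 6, 4 were called higher, CDH1 and VASH1 among them, and 1 lower, where 13.5% and 14.0% of all tested rows were. Where detection was required on all 8 arrays, 3 were tested, 1 higher and 1 lower, and 29.7% of all rows so tested were called in either direction. CDH1 and VASH1 entered the test only through the estradiol arrays, on which they are high. Their calls are thus not independent of the detection filter, do not add to the count as evidence and are given as a description. CDH1, which encodes the epithelial adhesion protein E-cadherin, was detected on no vehicle array and on all 4 estradiol arrays, at least 4.76-fold higher. VASH1, which encodes the angiogenesis inhibitor vasohibin, was likewise detected in estradiol only, at least 1.62-fold higher. Both bounds set the estradiol mean against the lowest detected single-probe signal of the vehicle arrays, or the signal of the gene itself where higher. FOXC1, a forkhead transcription factor gene, rose by 1.08 on the log2 scale (limma adjusted p = 6.4e-05). SLIT2, which encodes a secreted guidance ligand of the Robo receptors, fell by 0.94 (limma adjusted p = 0.000385). CDKN1C, which encodes a cyclin-dependent kinase inhibitor and was chosen after its values were seen, rose by 0.66. Those genes thus moved in both directions while EZH2 fell, and neither histone marks nor Polycomb binding were measured.

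Of 14 tested genes of proliferation and the E2F pathway, 9 were lower and none higher, 64.3% against 14.0% of all tested rows called lower, with a median log2 change of -0.53. The other 5 did not pass, RB1 among them with a log2 change of 0.26. Centring on the median of all rows left 6 lower. AURKB, a kinase of mitosis, fell by 0.99 (limma adjusted p = 0.000256), and CCNA2 (cyclin A2) fell by 0.91 (limma adjusted p = 0.000201). RRM2, a subunit of ribonucleotide reductase, fell by 0.78 (limma adjusted p = 0.000942) and MKI67, which encodes the Ki-67 antigen, fell by 0.73 (limma adjusted p = 0.000553). Of the E2F genes, looked at after their values were seen, E2F2 fell by 0.58 (limma adjusted p = 0.0112), while E2F3 (-0.35, limma adjusted p = 0.0512) and E2F1 (-0.19, limma adjusted p = 0.417) did not pass. PDGFRB, a fibroblast marker, fell by 0.48 (limma adjusted p = 0.0230) and CD14 changed by -0.32 without passing. The part of either group in the values of EZH2 and RBBP4 was not tested.

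**Figure D5:**
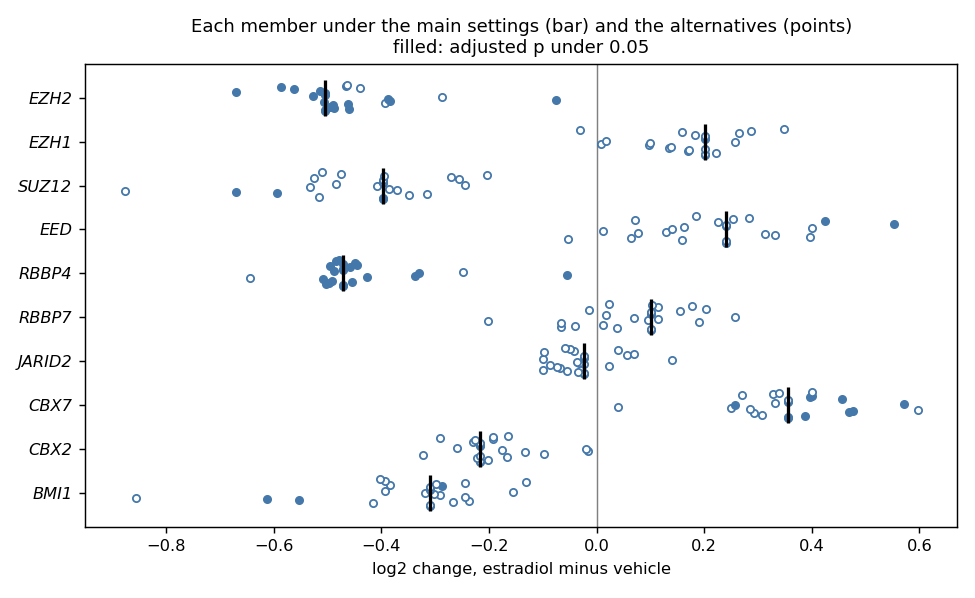
Log2 change of each member, estradiol minus vehicle, under the main settings (black bar) and under each alternative (points, filled where the limma adjusted p was under 0.05). EZH2, RBBP4, SUZ12, BMI1 and CBX2 stay left of 0 and CBX7 stays right of it throughout, while EED, RBBP7, JARID2 and EZH1 cross 0.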

How the data were processed

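Total RNA was extracted with Trizol and hybridised as biotinylated cRNA to Illumina arrays (per the labels' protocols). The authors deposited a table with an intensity and a detection p-value per array, per the file headers, not normalized between arrays, and a second table of intensities the authors normalized on the linear scale. The method, software and genome build are not given in the sources used here. Rows are genes. A row was taken as single-probe where its detection p-values were whole multiples of 1 part in 770 (within 0.002 of a whole number) with none between 0 and 1 such part (23850 rows), and as combined otherwise (7562). The number of probes in a combined row was the one for which its detection p-values are the chance that as many uniform values sum to a multiple of 1 part in 770. That gave 3 for EZH2, EED, RBBP4 and CBX2 and 1 for EZH1, and was not determined for the other 5 members.

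From the first table, signals were background-corrected with normexp, the negative-control mean and SD being inferred from single-probe rows. An offset of 16, which shrinks the changes of dim genes, was added, and values were quantile normalized and log2 transformed. Arrays of a culture, by title, were averaged, and 3 vehicle were compared with 3 estradiol cultures with lmFit and eBayes (R 4.3.3, limma 3.58.1), without covariates, with Benjamini-Hochberg adjustment over 11191 rows. The series text puts both repeats with replicate 3, which was an alternative for the estradiol repeat. Paralogs were compared with a two-sided exact permutation test. The files give no probe sequences, so hybridisation to related sequences, such as pseudogene copies, was not tested.

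Members and lists were chosen with earlier results of these data known. Named genes are all members, up to 4 tested genes of each list with the smallest p, and the 5 rows most like EZH2 and EZH1. From the target list, 1 gene is not reported here. Of the other 158 list genes 155 had a row (6 under older symbols), and FBRSL1, KMT2B and KMT2D did not match. On simulated data for this comparison (11191 rows, 50 changed per size) the fit recovered 4% of log2 changes of 0.4, 20% of 0.5, 78% of 1 and 100% of 2, with 4 false calls among 105. The data held 3072 calls, so the adjustment was stricter in the simulation, and these shares do not carry over to the data.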

Additional observations from a re-analysis of the deposited data

Results flagged for a closer look

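Among the 4 arrays of each treatment, 20 member and treatment groups were checked for an array far from the other 3, and 2 were found, where chance alone gives about 1 in 20 groups. EZH1 had a log2 normalized intensity of 5.48 on estradiol 2, against 4.72 to 4.85 on the other estradiol arrays, and this was the only array on which EZH1 was detected. CBX7 had 6.26 on the repeat of vehicle 3, against 6.64 to 6.71 on the other vehicle arrays. On that array EED, RBBP7 and JARID2 were also low, by 1.06, 0.85 and 0.45 against the first array of the culture. SUZ12 and BMI1 were high there, by 0.48 and 0.44.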

How the results depend on the processing

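No called member changed sign under the alternatives, 23 for EZH2 and CBX7 and 22 for RBBP4. EZH1, not tested, kept its sign in 21 of 22. Members that were not called did: EED was -0.053 with first arrays only. RBBP7 was -0.066 with first arrays only, -0.041 without the vehicle 3 repeat, -0.067 with the chip as a covariate, -0.20 on chip B and -0.014 to 0.20 with a culture left out. JARID2 was 0.022 on chip A, 0.14 after centring on all rows, 0.057 with array weights and -0.098 to 0.070 with a culture left out. Chip A has a single estradiol array, taken to vary as its vehicle arrays do. The lower members numbered 4 with the 8 arrays in a random block and with the chip as a covariate, 1 where detection was required on all 8 arrays (RBBP4 was then not tested), 0 on chip A alone and 0 after centring on the median of all rows, and 1 to 2 with a culture left out. The higher member, CBX7, dropped to 0 with first arrays only, without the vehicle 3 repeat, on chip A or chip B alone, without background correction, with background from all rows, after centring on tested rows, without the detection filter and with a trended robust variance. Array weights gave 2 higher members, CBX7 and EED, and leaving out a culture 0 to 2. Other Polycomb genes called higher numbered 4 with the random block or the chip, 5 with array weights, 3 after centring on all rows, 0 with first arrays, on chip A or after centring on tested rows, and 0 to 3 with a culture left out. Those called lower numbered 8 with the chip, 7 with array weights, 2 on chip B or after centring on all rows, 0 on chip A, and 1 to 4 with a culture left out. Over all rows, 2405 (random block), 2680 (chip), 3413 (array weights), 622 (centring on all rows) and 122 (chip A) were lower, and 2371 (chip), 3075 (array weights), 2273 (centring on all rows) and 276 (chip A) were higher. Leaving out a culture gave 1031 to 1673 higher and 914 to 1675 lower. Centring on all rows made 78.5% of the calls higher, against 49.1% with quantile normalization and 38.2% after centring on tested rows. The random block had a consensus correlation of -0.50, a negative value that gives a repeated culture more weight than independent arrays would. The cause of these shifts was not tested. EZH2 was called under 19 of 23 alternatives and RBBP4 under 20 of 22 (chip A among those not called), and background from all rows shrank them to -0.08 and -0.05. On the values the authors normalized, the log2 changes were -0.39 (EZH2), -0.33 (RBBP4) and 0.26 (CBX7), each still called. With the replicate number as a block (replicate block), EZH2 (-0.50, limma adjusted p = 0.0152), RBBP4 (limma adjusted p = 0.0114) and CBX7 (limma adjusted p = 0.0362) were still called, 2 lower and 1 higher, and SUZ12 became lower (limma adjusted p = 0.0371). Whether the numbers pair the cultures is not stated in the labels. Same-numbered deviations correlated at 0.13, 0.13 and -0.03, and differently numbered ones at -0.16 to 0.09. With 3 cultures a side these values cannot settle it. With 3 cultures a side, changes near 0.4 were mostly missed in the simulation. It held far fewer calls than the data, so its adjustment was stricter and the share missed in the data is not known.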
